A study of Mus musculus with 6 samples.

Results

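The ribosome biogenesis factors examined here are 60 genes that encode nucleolar and pre-ribosome assembly proteins, chosen by gene symbol from a fixed list. All 60 have a row among the 24499 genes of the deposited table, 59 under the listed symbol and *Utp4* under its synonym *Cirh1a*, and all 60 were among the 13296 genes with enough counts to be tested. Expression was measured by RNA-seq of poly(A) RNA from induced germinal center B cells (iGCBs), which are splenic naïve B cells grown on irradiated 40LB feeder cells, a fibroblast line presenting CD40L and BAFF, in medium with 1 ng/ml IL-4. YFP+ iGCBs were sorted on day 3, giving 3 cKO and 3 control libraries. The comparison asks how these genes respond to loss of *Eif3e*, the gene for one subunit of translation initiation factor eIF3.

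The cKO mice carried *Eif3e* fl/fl, Cγ1Cre and Rosa26-YFP LSL. The labels call the other group only control. The study gives control mice as Cγ1Cre Rosa26-YFP LSL where it describes their spleens and lymph nodes. The control libraries were also sorted on YFP, so their cells carried Cre and the reporter. The *Eif3e* alleles of the control mice used for these cultures were not given in the sources used here. Ages were not given in the sources used here. Cγ1Cre is expressed from the Ig γ1 locus once a B cell is activated, so a YFP+ cell is one in which Cre has acted on the reporter, and deletion of both *Eif3e* alleles is not read out by YFP itself. Levels are given as CPM, the counts of a gene as a share of the library total after TMM scaling. *Eif3e* averaged 406 ± 16.5 CPM in the control libraries and 158 ± 13.1 CPM in the cKO libraries (SD, n = 3 per group), and its log2 fold change was −1.36 with an adjusted p of 6.71e-07 by edgeR's quasi-likelihood test. The 6 libraries held between 39079582 and 45504570 counts. The summed level of 6 B cell markers was 4464 to 4620 CPM in cKO and 4331 to 4687 CPM in control libraries. Of these 6, 3 were higher and 3 lower at an adjusted p under 0.05 in edgeR, where 24.1% and 24.5% of all tested genes were. Their log2 fold changes ran from −0.37 to 0.49. All 6 had no overlap between groups, where 58.7% of all tested genes had none. The sum of 5 germinal center markers was 262 to 272 CPM against 324 to 370.4 CPM.

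Ribosomes are built in the nucleolus from a long precursor RNA made by RNA polymerase I. Small nucleolar ribonucleoproteins (snoRNPs) modify the precursor, the small-subunit processome folds and cleaves the part that becomes the 40S subunit, and a separate series of particles matures the 60S subunit before both are exported. In B cells, activation is accompanied by nucleolar growth, and MYC is a well-known activator of many of these genes.

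Most of the 60 factors were higher in cKO than in control iGCBs. At an adjusted p under 0.05, 54 of 60 were higher, or 90% of them, where 24.1% of all tested genes were higher. Lower expression was called for 1 of 60, *Imp3*, where 24.5% of all tested genes were lower. With a fold change over 1.5 also required, 33 were higher against a background of 10.4%, and 0 were lower against 10.6%. In edgeR's test that the change itself exceeds 1.5-fold (glmTreat), 22 were higher against a background of 4.39%, and 0 were lower against 4.36%. The median log2 fold change of the 60 was 0.65 and that of all tested genes was −0.004. Values ran from −0.22 to 1.58, and 58 of the 60 were above 0. The 3 cKO libraries lay wholly apart from the 3 control libraries for 56 of 60 factors, where 58.7% of all tested genes had no overlap in either direction. An exact two-sided permutation test of 3 libraries against 3 gave p = 0.1 for each of those 56, which is the smallest value this design allows.

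**Figure D1:**
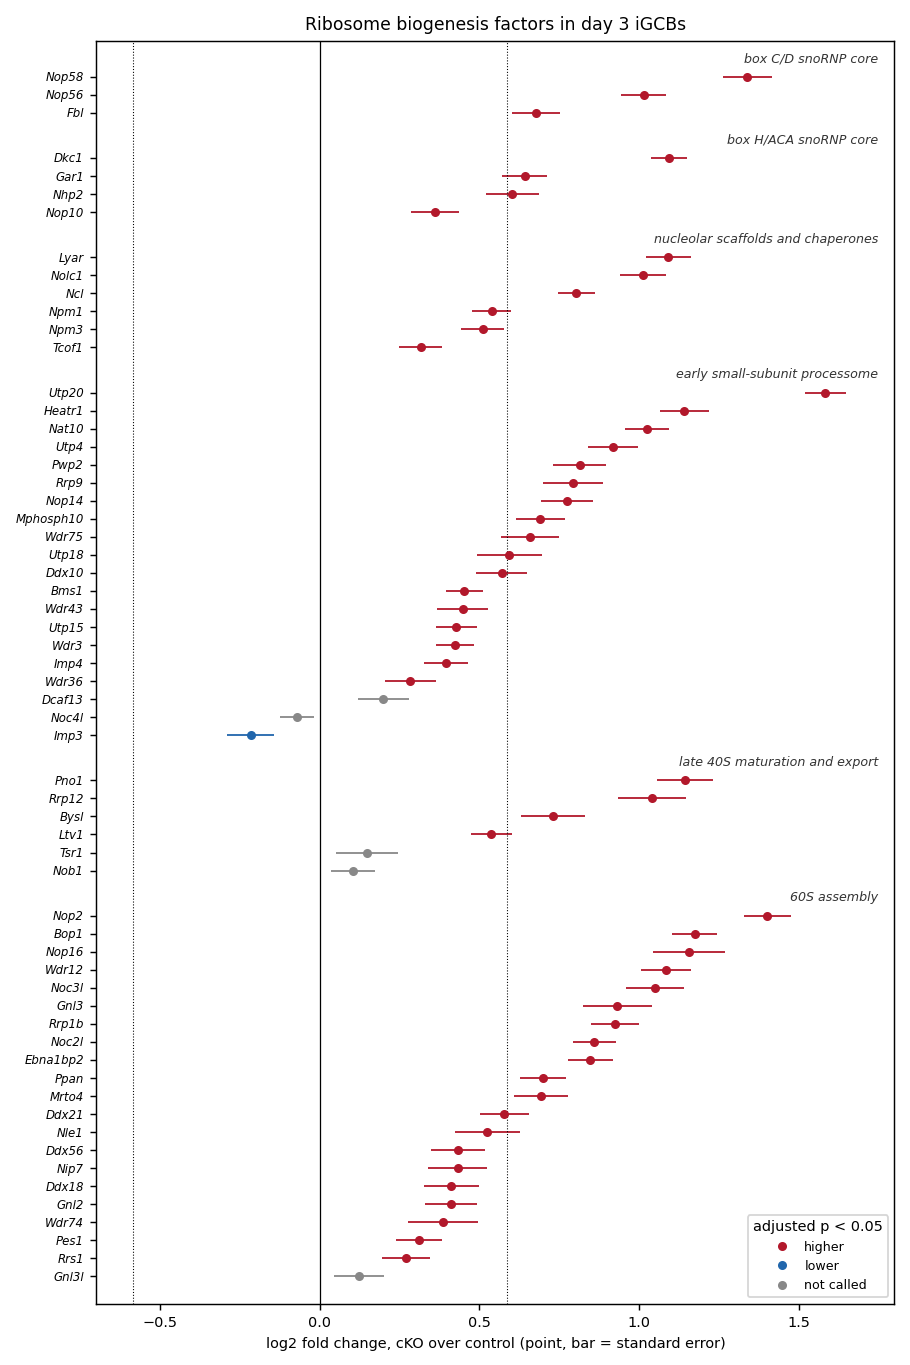
Log2 fold change of cKO over control for each of the 60 factors, grouped by role, with the standard error of edgeR's fit as a bar and dotted lines at 1.5-fold in either direction. Red points were higher and the blue point, Imp3, lower at an adjusted p under 0.05, and the 5 grey points were not called.

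The size of the rise differed between cKO libraries. Relative to each gene's mean control CPM, the median over the 60 factors was 0.57, 0.76 and 0.58 on the log2 scale in cKO replicates 1, 2 and 3. The same median was −0.01, −0.09 and 0.07 in control replicates 1, 2 and 3. Replicate 2 was the highest cKO library for 55 of 60 factors. Among controls, replicate 3 was highest and replicate 2 lowest for 43 factors each. Values in cKO replicates 1, 2 and 3 exceeded every control library for 57, 58 and 56 of the 60 factors. *Xist*, the RNA of the inactive X chromosome, had between 53272 and 70912 counts in cKO replicate 2 and control replicates 1 and 2 and between 0 and 16 counts in the rest, so both groups held libraries with and without it. The median difference over the 60 factors was 0.80 (log2) between the libraries with *Xist*, 1 cKO against 2 control, and 0.52 between those without it, 2 cKO against 1 control. The only cKO library with *Xist*, replicate 2, was the highest cKO library for 55 factors. The only control without it, replicate 3, was the highest control for 43. *Xist* status therefore cannot be told apart here from this spread between libraries. With *Xist* as a covariate in edgeR, the number of factors higher remained 54.

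**Figure D2:**
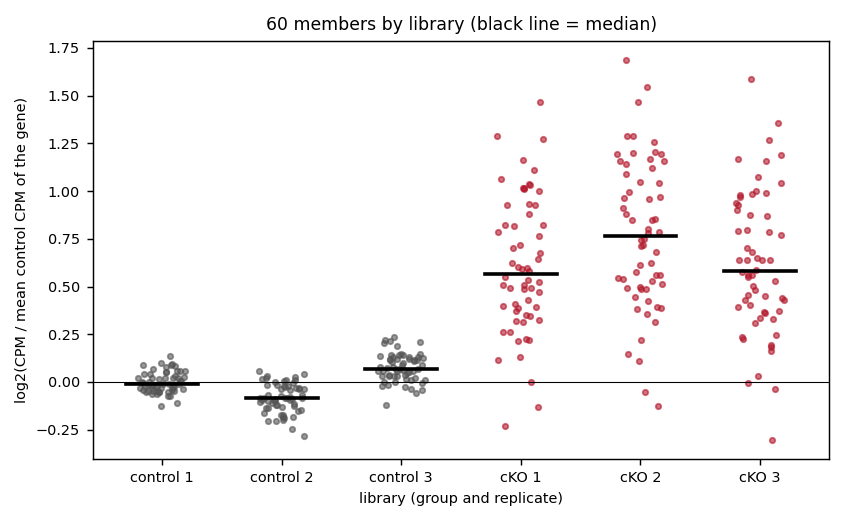
Log2 of CPM over the gene's mean control CPM for the 60 factors in each of the 6 libraries, with each point a gene and the black line the median. The medians are −0.01, −0.09 and 0.07 in the controls and 0.57, 0.76 and 0.58 in the cKO libraries.

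Other cell types were measured by marker lists. Of 10 fibroblast genes, which would mark feeder cells, *Lum* and *Postn* were at 0 in every library, and the summed level was 58.8 to 63.9 CPM in cKO and 42.5 to 93.7 CPM in control libraries, so the sums overlapped. Its 7 tested members did not move together: *Fbn1*, which encodes the matrix protein fibrillin-1, was at 0 in every control library and at 3.90 ± 0.748 CPM in cKO libraries (SD, n = 3), while the 6 others were not called, with negative log2 fold changes. T cell markers summed to 1.5 to 1.8 CPM in cKO against 3.69 to 6.71 CPM, with *Cd3e* at 0 throughout, and myeloid markers to 4.08 to 6.06 CPM against 1.22 to 2.45 CPM. Plasma cell markers were 646 to 788 CPM against 831 to 852 CPM. The germinal center and plasma cell sums were thus lower in every cKO library, as was the small T cell sum, while the small myeloid sum was higher. Within these lists members went both ways, where 24.1% of all tested genes were called higher and 24.5% lower. Of 5 germinal center markers 3 were lower, with *Mef2b* at −1.67, and *Fas* was higher at 0.41, and of 5 plasma cell markers 3 were lower, with *Jchain* at −4.00, while *Sdc1* and *Irf4* were higher at 1.60 and 0.42. The part of these other changes in the rise of the biogenesis factors was not tested. In bulk RNA, a change in the share of a cell type and a change in RNA per cell cannot be told apart.

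The box C/D snoRNP core, which carries out 2′-O-methylation of rRNA guided by box C/D snoRNAs, had 3 of 3 listed members higher and a median log2 fold change of 1.01. Counts for this and the following role groups stand beside 24.1% higher and 24.5% lower among all tested genes. *Nop58*, a scaffold protein of the particle, had 147, 132 and 157 CPM in control replicates 1, 2 and 3 and 352, 402 and 350.3 CPM in cKO replicates 1, 2 and 3. Every cKO library held more than double the level of its highest control, and the log2 fold change with its standard error was 1.34 ± 0.08 (adjusted p = 1.55e-06) in edgeR. *Fbl*, the methyltransferase fibrillarin, had 139.7, 127 and 152 CPM in control and 211, 241 and 217 CPM in cKO libraries. Its groups also lay apart, with a smaller log2 fold change of 0.68 ± 0.07 (adjusted p = 5.14e-05) in edgeR. *Nop56*, the second scaffold, lay between them at 1.01.

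The box H/ACA snoRNP core converts uridine to pseudouridine, and 4 of 4 members were higher, with a median log2 fold change of 0.62. *Dkc1*, the pseudouridine synthase dyskerin, rose from 71.1, 69.8 and 74.1 CPM in control replicates 1 to 3 to 147, 161 and 151 CPM in cKO replicates 1 to 3. Its libraries varied little within a group, and the log2 fold change was 1.09 ± 0.06 (adjusted p = 8.59e-07) in edgeR. *Nop10*, a small protein that binds dyskerin, rose from 33.1, 31.7 and 31.6 to 40.8, 43.0 and 39.8 CPM. The gap between its groups was narrow but complete, with a log2 fold change of 0.36 ± 0.08 (adjusted p = 0.00278) in edgeR. *Gar1* and *Nhp2*, the remaining core proteins, had log2 fold changes of 0.64 and 0.60.

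All 6 nucleolar scaffolds and chaperones were higher, with a median log2 fold change of 0.67. *Ncl* encodes nucleolin, an abundant nucleolar RNA-binding protein, and its counts per library were the largest of the 60 without correction for length, at 1401, 1259 and 1430.0 CPM in control and 2412, 2507 and 2219 CPM in cKO replicates 1 to 3. The cKO libraries were all well above the controls, and the log2 fold change was 0.80 ± 0.06 (adjusted p = 4.26e-06) in edgeR. *Lyar*, a nucleolar zinc finger protein, rose from 40.3, 39.8 and 42.9 to 85.6, 94.4 and 82.1 CPM. Its groups were far apart relative to their spread, with a log2 fold change of 1.09 ± 0.07 (adjusted p = 2.45e-06) in edgeR. *Tcof1*, which encodes treacle, a cofactor of rDNA transcription, had 234, 233 and 273 CPM in control and 296, 316 and 309.7 CPM in cKO libraries. Control replicate 3 came closest to the cKO values without reaching them, and the log2 fold change was 0.32 ± 0.07 (adjusted p = 0.00295) in edgeR. *Nolc1*, a chaperone of snoRNPs, was at 1.01, and the nucleophosmin genes *Npm1* and *Npm3* at 0.54 and 0.51.

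The early small-subunit processome had the widest range of log2 fold changes of the 6 role groups. Of its 20 members, 17 were higher, 1 was lower and 2 were not called, with a median log2 fold change of 0.58. *Utp20*, a very large helical repeat protein, showed the highest fold change of the 60, from 57.0, 57.8 and 58.0 CPM in control replicates 1 to 3 to 159, 186 and 173 CPM in cKO replicates 1 to 3. The control libraries were nearly identical and the lowest cKO library was far above them, with a log2 fold change of 1.58 ± 0.06 (adjusted p = 3.43e-07) in edgeR. *Heatr1*, a subunit of the UtpA complex that binds the 5′ end of the precursor, rose from 88.9, 87.8 and 99.2 to 184, 219.9 and 205 CPM. Its groups were separate in every pairing of libraries, with a log2 fold change of 1.14 ± 0.08 (adjusted p = 2.86e-06) in edgeR. *Wdr43*, another UtpA subunit, had 131, 118 and 145 CPM in control and 174, 194 and 169.5 CPM in cKO libraries. Its lowest cKO library was modestly above its highest control, and the log2 fold change was 0.45 ± 0.08 (adjusted p = 0.00117) in edgeR.

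*Imp3* went the other way. This small protein joins the U3 snoRNA to the precursor together with *Imp4* and *Mphosph10*, and it had 54.5, 49.7 and 52.7 CPM in control and 44.6, 47.9 and 42.4 CPM in cKO replicates 1 to 3. The highest cKO library lay just below the lowest control, and the log2 fold change was −0.22 ± 0.07 (adjusted p = 0.0341) in edgeR. Besides the test against 1.5-fold, that call was lost in 6 refits: without cKO replicate 1, cKO replicate 3, control replicate 1 or control replicate 3, with *Xist* as a covariate, and with the replicate number as a block (adjusted p = 0.055 in edgeR). Its partners were called higher, *Mphosph10* with a log2 fold change of 0.69 and *Imp4* with 0.40. *Noc4l*, a partner of *Nop14*, was not called at −0.07 (adjusted p = 0.298 in edgeR), and *Nop14* was higher at 0.77. *Dcaf13*, the mammalian counterpart of yeast Sof1, was not called at 0.20 (adjusted p = 0.0633 in edgeR). The remaining members included *Nat10*, the rRNA cytidine acetyltransferase, at 1.02, *Utp4* of UtpA at 0.92, *Pwp2* of UtpB at 0.81, *Rrp9* of the U3 snoRNP at 0.79 and the GTPase *Bms1* at 0.45. *Wdr75* of UtpA, *Utp18* and the helicase *Ddx10* lay at 0.66, 0.59 and 0.57, and *Utp15* of UtpA, *Wdr3* and *Wdr36* of UtpB at 0.43, 0.42 and 0.28.

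Among 6 factors of late 40S maturation and export, 4 were higher and 2 were not called, with a median log2 fold change of 0.63. *Pno1*, which holds the 3′ end of the immature 18S rRNA, rose from 60.4, 57.8 and 67.2 CPM in control to 138, 151 and 121 CPM in cKO replicates 1 to 3. Its groups were well separated, with a log2 fold change of 1.15 ± 0.09 (adjusted p = 5.48e-06) in edgeR. *Nob1*, the endonuclease that makes the final cut beside it, had 60.7, 54.0 and 60.5 CPM in control and 63.9, 64.7 and 59.8 CPM in cKO libraries. Control replicates 1 and 3 lay above cKO replicate 3, and the log2 fold change was 0.10 ± 0.07 (adjusted p = 0.246) in edgeR. *Tsr1*, a GTPase-like factor on late 40S particles, had 125, 103 and 127 CPM in control and 128, 147 and 118 CPM in cKO libraries. Its groups overlapped too, with a log2 fold change of 0.15 ± 0.10 (adjusted p = 0.239) in edgeR. *Rrp12*, which takes part in export, was higher at 1.04, and the assembly factors *Bysl* and *Ltv1* at 0.73 and 0.54.

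Of 21 factors of 60S assembly, 20 were higher and 1 was not called, with a median log2 fold change of 0.69. *Nop2*, an rRNA cytosine methyltransferase, led the group, rising from 51.6, 51.5 and 55.3 CPM in control to 129, 154 and 135 CPM in cKO replicates 1 to 3. Every cKO library was more than double every control, with a log2 fold change of 1.40 ± 0.07 (adjusted p = 9.74e-07) in edgeR. *Bop1*, a subunit of the PeBoW complex needed for 60S rRNA processing, rose from 58.0, 54.8 and 55.3 to 115, 137 and 128 CPM. Its groups were far apart, with a log2 fold change of 1.17 ± 0.07 (adjusted p = 1.85e-06) in edgeR. *Wdr12* of the same complex rose from 34.3, 31.4 and 35.3 to 67.9, 77.0 and 69.3 CPM. The log2 fold change of *Wdr12* was 1.08 ± 0.08 (adjusted p = 3.96e-06) in edgeR, close to that of *Bop1*, whereas *Pes1*, the third subunit, was higher by only 0.31. *Nop16*, a nucleolar factor of pre-60S particles, rose from 29.6, 23.9 and 33.9 to 62.9, 66.8 and 65.3 CPM. Its controls were the more spread group and still lay well below the cKO libraries, with a log2 fold change of 1.16 ± 0.11 (adjusted p = 2.26e-05) in edgeR.

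*Ddx21*, a nucleolar RNA helicase with the largest counts among the 60S factors, had 308, 288 and 344 CPM in control and 446, 514 and 444 CPM in cKO replicates 1 to 3. Its groups did not overlap, and the log2 fold change was 0.58 ± 0.08 (adjusted p = 0.000174) in edgeR, just under 1.5-fold. *Gnl3l*, a nucleolar GTPase related to nucleostemin, had 66.2, 58.3 and 61.3 CPM in control and 61.9, 66.8 and 73.5 CPM in cKO libraries. Here cKO replicate 1 fell inside the control range, and the log2 fold change was 0.12 ± 0.08 (adjusted p = 0.225) in edgeR. *Gnl3*, nucleostemin itself, was higher at 0.93, and the third related GTPase, *Gnl2*, at 0.41. *Noc3l* and *Noc2l*, which escort pre-60S particles, were at 1.05 and 0.86, and *Rrp1b*, *Ebna1bp2*, *Ppan* and *Mrto4* at 0.92, 0.85, 0.70 and 0.69. The smaller increases were those of *Nle1*, *Ddx56*, *Nip7*, *Ddx18*, *Wdr74* and *Rrs1*, between 0.27 and 0.52. *Rrs1*, *Wdr74* and, of the processome, *Wdr36* lost their calls in some fits that left out 1 library, all 3 of them without cKO replicate 2.

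**Figure D3:**
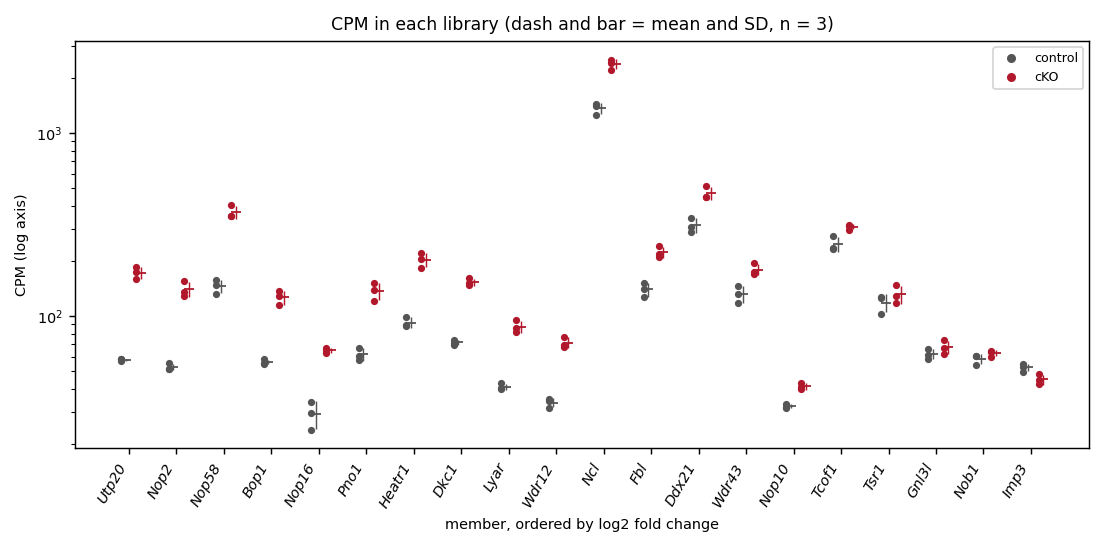
CPM on a log axis in each library for 20 factors named with full statistics, in order of log2 fold change, with 3 control points in grey, 3 cKO points in red and the mean ± SD beside them. The groups lie apart from Utp20 to Tcof1, overlap for Tsr1, Gnl3l and Nob1, and lie apart with cKO lower for Imp3.

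Genes whose proteins act in 1 complex or pathway did not all change by equal amounts. The following pairs were chosen after the values had been seen and are given without a test. Most are partners, while *Gnl3* and *Gnl3l* are related GTPases. The log2 ratio of *Nop58* to *Fbl* was between 0.05 and 0.07 in control and between 0.69 and 0.74 in cKO libraries. The ratio itself depends on the lengths of both transcripts, so only its shift between groups is read here. For *Mphosph10* over *Imp3* the range was −0.65 to −0.56 in control and 0.28 to 0.32 in cKO libraries. *Bop1* over *Pes1* moved from between −1.32 and −1.07 to between −0.45 and −0.21. The ratio of *Pno1* to *Nob1* moved furthest of the 11 pairs, from between −0.01 and 0.15 to between 1.01 and 1.22. In all 11 pairs the cKO and control ranges lay apart. Each pair set the factor with the larger log2 fold change over the other, so the direction was fixed by the choice. No share over other pairs of genes was computed, so this count says nothing about partners in general.

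**Figure D4:**
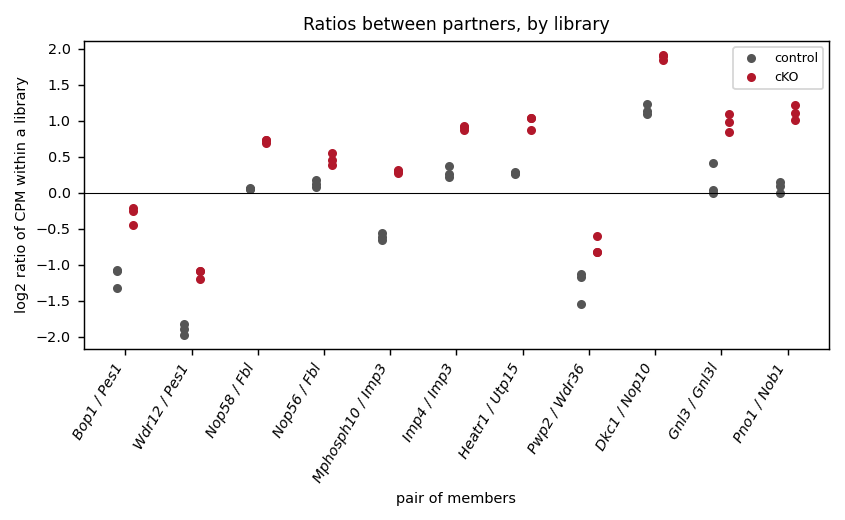
Log2 ratio of CPM between paired factors within each library for 11 pairs chosen after their values were seen, with control libraries in grey and cKO libraries in red. Gnl3 and Gnl3l are related GTPases rather than partners in a complex. Each pair has a higher ratio in all 3 cKO libraries, by between 0.34 and 1.04 on average. The numerator is in each pair the factor with the larger log2 fold change, so this direction was fixed by the choice.

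The same table held 112 other ribosome biogenesis factors from a second list. Of these, 61 were higher, or 54.5% against 24.1% of all tested genes, and 12 were lower, or 10.7% against 24.5%. The other 39 were not called, and the median log2 fold change was 0.26. Over 1.5-fold, 30 were higher, or 26.8% against 10.4%, and 1 was lower, or 0.893% against 10.6%. Among those with at least 10 CPM on average, the largest increases were those of *Ftsj3*, a rRNA methyltransferase of pre-60S particles, at 1.37 and *Mdn1*, the AAA ATPase that strips factors from them, at 1.15, both named after their values were seen. *Eif6*, which keeps the 60S subunit from joining the 40S subunit too early, was at 1.03. The 1 factor lower over 1.5-fold was *Gltscr2*, also called Nop53, at −0.67 (adjusted p = 5.27e-06 in edgeR), with 309 CPM in cKO and 491 CPM in control libraries on average. Lower calls also included the helicase *Ddx54* and the nucleolar protein *Surf6*, both at −0.43.

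RNA polymerase I makes the rRNA precursor. Of 15 genes of its machinery, 7 were higher, or 46.7% against 24.1% of all tested genes, and 4 were lower, or 26.7% against 24.5%. The other 4 were not called, and the median log2 fold change was 0.14. The catalytic subunits had the largest values, with *Polr1b* at 1.51 and *Polr1a* at 1.40. The next were *Cd3eap*, another subunit, at 0.82 and *Polr1c*, shared with RNA polymerase III, at 0.55. *Ubtf*, which opens rDNA chromatin, was at 0.26, whereas the termination factor *Ttf1* was at −0.44 and *Taf1b*, of the promoter selectivity factor, at −0.37. Poly(A) RNA-seq does not measure rRNA, so rRNA output was not examined.

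**Figure D5:**
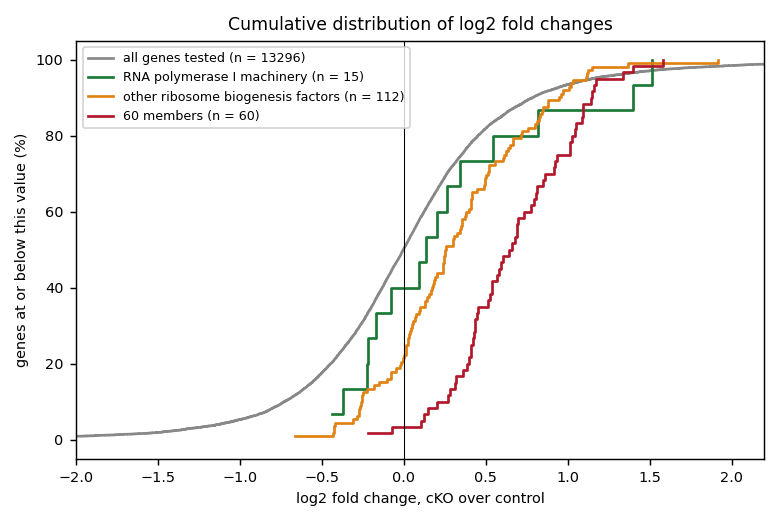
Cumulative percent of genes at or below each log2 fold change of cKO over control for all 13296 tested genes, 15 genes of the RNA polymerase I machinery, 112 other biogenesis factors and the 60 factors. The axis is cut at −2 and 2.2, and the medians are −0.004, 0.14, 0.26 and 0.65 in that order.

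Transcript use was examined because a change in 1 isoform could carry a gene-level change. The 60 factors had 76 RefSeq transcripts in the transcript table and 10 of them had more than 1. Of 25 transcripts that could be tested against the rest of their gene, 0 were called by edgeR's diffSpliceDGE at an adjusted p under 0.05, and 0 had an unadjusted p under 0.05, where 0.615% of all tested transcripts were called. With a share that low, 0 of 25 says little about isoform use. Counts of some transcripts also varied widely within a group: 1 *Gnl3l* transcript had 56, 2120 and 172 counts in cKO and 0, 0 and 771 in control replicates 1 to 3.

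Several of these genes carry other RNAs within them. By the GENCODE M21 annotation of GRCm38, 8 of the 60 host 23 snoRNA or scaRNA genes, or 13.3% of the factors against 1.76% of 12204 tested protein-coding genes. The hosts are *Ncl*, *Nop56*, *Nop58*, *Dkc1*, *Gnl3*, *Wdr43*, *Tsr1* and *Ppan*, with a median log2 fold change of 0.87 against 0.60 for the remaining factors. An exon of another gene on the opposite strand overlapped an exon of 22 factors, among them *Nop56* with *Idh3b* and *Dkc1* with *Mpp1*. The library protocol mentions a strand-specific option, but whether counting used strand was not given in the sources used here, so reads of such pairs might not be told apart. Among the 38 factors without such an overlap, 33 were higher, where 24.1% of all tested genes were, and the median log2 fold change was 0.62. The part of opposite-strand reads in the rise was not tested. *Npm3* and *Mrto4* have annotated pseudogenes named after them, whose reads could be shared.

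The promoters were searched for CACGTG, the canonical E-box, which is bound by MYC and other basic helix-loop-helix proteins and reads the same on both strands. RefSeq windows of GRCm38.p6, from 250 bases before to 50 after the transcription start, were found for 50 of the 60 factors. Of their 54 windows, 11 held the motif, or 20.4%, against 7.15% of all windows and 9.84% of those of tested genes. The factors with it had a median log2 fold change of 0.54 (n = 11) those without it 0.70 (n = 39) and those with no window listed 0.36 (n = 10). These medians were not tested against each other. Of the 10 factors with the largest log2 fold changes, 3 had the motif, 6 did not and 1 had no window. The windows printed here are those of the 4 highest-ranked factors with a window and of *Imp3*, the only one of the 60 called lower. *Utp20* and *Nop2* have the motif, 37 bases after and 60 before the start, and *Nop58*, *Nop16* and *Imp3* do not. They lie at chr10:88826765-88827064 on the minus strand, chr6:125131633-125131932 on the plus strand, chr1:59684756-59685055 on the plus strand, chr13:54590025-54590324 on the minus strand and chr9:56937250-56937549 on the plus strand, and are written 5′ to 3′ along the gene's strand with CACGTG in capitals.
Utp20: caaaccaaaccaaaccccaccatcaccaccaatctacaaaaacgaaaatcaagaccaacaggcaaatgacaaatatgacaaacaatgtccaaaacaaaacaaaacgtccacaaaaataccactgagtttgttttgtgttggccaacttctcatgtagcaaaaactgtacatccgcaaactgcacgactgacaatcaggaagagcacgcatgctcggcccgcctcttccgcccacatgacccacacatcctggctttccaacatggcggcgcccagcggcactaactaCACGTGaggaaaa
Nop2: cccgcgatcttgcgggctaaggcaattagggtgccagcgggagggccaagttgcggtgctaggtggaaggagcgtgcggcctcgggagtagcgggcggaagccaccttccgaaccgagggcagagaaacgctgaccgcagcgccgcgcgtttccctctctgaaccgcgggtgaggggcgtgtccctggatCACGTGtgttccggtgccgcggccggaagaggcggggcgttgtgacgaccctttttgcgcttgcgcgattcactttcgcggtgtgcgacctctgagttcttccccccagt
Nop58: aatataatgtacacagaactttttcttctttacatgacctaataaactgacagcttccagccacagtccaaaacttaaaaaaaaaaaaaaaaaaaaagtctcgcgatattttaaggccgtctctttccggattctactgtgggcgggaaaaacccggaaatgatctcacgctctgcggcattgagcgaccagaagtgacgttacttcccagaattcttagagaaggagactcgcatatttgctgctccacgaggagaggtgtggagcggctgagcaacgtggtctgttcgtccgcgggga
Nop16: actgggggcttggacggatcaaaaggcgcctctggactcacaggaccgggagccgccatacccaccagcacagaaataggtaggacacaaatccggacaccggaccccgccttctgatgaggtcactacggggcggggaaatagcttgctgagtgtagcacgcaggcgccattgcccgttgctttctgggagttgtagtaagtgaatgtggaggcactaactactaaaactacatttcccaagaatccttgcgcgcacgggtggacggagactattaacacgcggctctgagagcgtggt
Imp3: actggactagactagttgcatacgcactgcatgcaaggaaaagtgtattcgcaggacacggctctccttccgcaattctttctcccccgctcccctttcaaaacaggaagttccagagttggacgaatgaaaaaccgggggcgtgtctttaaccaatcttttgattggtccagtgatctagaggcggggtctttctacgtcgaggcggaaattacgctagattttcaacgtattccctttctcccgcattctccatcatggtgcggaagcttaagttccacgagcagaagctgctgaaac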

How the data were processed

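RNA-seq of sorted YFP+ iGCBs gave 3 cKO and 3 control libraries. The authors trimmed the reads, aligned them to mm10 with HISAT2, quantified them with StringTie and deposited estimated counts for genes and for RefSeq transcripts from the prepDE script. The deposited estimated counts are whole and not normalized. Tool versions were not given in the sources used here. Totals were 39079582 to 45504570 counts per library.

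The counts were fitted in edgeR 4.0.16 under R 4.3.3. Low genes were removed with filterByExpr (minimum count 10), libraries were scaled by TMM, and a 2-group quasi-likelihood test compared cKO with control, with p-values adjusted over 13296 genes by the Benjamini-Hochberg method. A value after ± is the standard error for a log2 fold change and the SD for a CPM. A 1.5-fold cutoff followed the study. Transcript use was tested with diffSpliceDGE in edgeR. Alternatives were DESeq2 1.42.0, other scalings and filters, counts divided by 2, a test against 1.5-fold (glmTreat), the replicate number as a block, Xist as a covariate and each library left out. The study describes the libraries of a group as biological replicates.

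The members, lists and tests were chosen with earlier results of these data known. Full statistics were given, by rule, for the largest and smallest log2 fold change and the highest CPM in each role group, every member called lower, and the 10 largest increases among those called. Levels per transcript length were planned but left out, because the matched annotation gave transcripts of doubtful length for Ncl, Nop58, Wdr12 and Imp4. Gene positions came from GENCODE M21, matched by symbol.

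The fits were tested on simulated counts. Neither the first limits set for the share of changed genes recovered and for false calls, nor a second set on well-counted genes, were met. The simulated spread was then redrawn and the limits were lowered after the outcome was known, with false calls limited for edgeR only. DESeq2 called many unchanged genes in that simulation, so its agreement with edgeR carries little weight.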

Additional observations from a re-analysis of the deposited data

How the results depend on the processing

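Of 107 values recomputed for the main counts and medians, 97 stayed within a set tolerance and 10 moved, and 0 changed direction. A count was within tolerance if it was equal, or if both were above 0 and differed by at most 1.5-fold. A median was within it if it moved less than the spread between libraries of the factors' mean log2 CPM. The tolerance is wide: 33 factors higher over 1.5-fold in the main fit against 22 in the test against 1.5-fold was within it. The number of factors lower went from 1 to 0 with the replicate block, with Xist as a covariate and with the test against 1.5-fold, which left 22 factors higher, and 18 higher and 0 lower among the other biogenesis factors, where that test called 584 of 13296 genes higher (4.39%) and 580 lower (4.36%). With each library left out in turn, 51 to 55 factors were higher, 0 to 1 lower and 30 to 36 higher over 1.5-fold, the median log2 fold change was 0.59 to 0.70, and 51 to 59 of the other factors were higher and 8 to 12 lower. Of the values for the 20 factors with full statistics, 288 kept their side of the threshold and 12 lost it. Dcaf13 was called with at least 10 counts required in every library and without control replicate 3. The cause of these moves was not tested. Same-numbered libraries deviated together weakly (r = 0.01, 0.08 and 0.13 for numbers 1, 2 and 3). By these deviations cKO replicates 1 and 2 correlated best with control replicates 3 and 1, and cKO replicate 3 with its own number. With 3 libraries per group these values cannot settle whether the numbers pair the samples. The study used a paired t test for proliferation, death and surface proteins of control and cKO iGCBs. It states no pairing for the RNA-seq. The main fit was unpaired, and the block left 54 factors higher and Imp3 without its call. A planned fit without immunoglobulin genes was not run, because 0 rows matched such a segment. CPM is a share of counts, so RNA per cell was not measured.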
